A study of Homo sapiens with 2 samples.

Results

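The 10 mature miRNAs described here carry the miR-17, miR-18 and miR-19 seeds or lie on the opposite arm of such a hairpin, and they come from the miR-17-92, miR-106a-363 and miR-106b-25 clusters. They were chosen by name, without the miR-25 and miR-92 seed of the same clusters, and all 10 were found among the 2038 names listed. Small RNA had been sequenced from FaDu (FadU in the labels), an established line of hypopharyngeal squamous cell carcinoma, with 1 library from parental cells and 1 from spheres that the labels call sphere-derived cancer stem cells. Parental cells were grown in RPMI-1640 with 10% FBS. Spheres were grown in DMEM-F12 to which bFGF (10 ng/ml), EGF (10 ng/ml) and N2 Plus Supplement had been added. Both media held penicillin and streptomycin, and each library started from 1 µg of total RNA. Growth form, basal medium, serum and growth factors differed together between the groups, so they cannot be told apart.

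A miRNA pairs with its targets mainly through its seed, bases 2 to 8 from the 5′ end. miRNAs with the same seed therefore share many targets even when their genes lie on different chromosomes. The miR-17-92 transcript yields miRNAs with several seeds. It is induced by MYC and E2F factors, and it is known from B-cell lymphoma and many carcinomas as an oncogenic cluster. miR-17 seed members repress the cell cycle inhibitor CDKN1A and the pro-apoptotic BCL2L11. Each hairpin gives a 5p and a 3p arm, and the arm kept by Argonaute is usually much the more abundant.

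The mature sequences are shown because the seed sorts the members into families, and because near-identical members limit how reads can be divided among them. All come from the RefSeq table on GRCh38.p14, which had every member. Capitals mark the seed.
miR-17-5p: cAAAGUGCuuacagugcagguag
miR-20a-5p: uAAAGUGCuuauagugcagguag
miR-106a-5p: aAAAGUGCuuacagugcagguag
miR-106b-5p: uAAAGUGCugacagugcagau
miR-93-5p: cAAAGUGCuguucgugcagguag
miR-18a-5p: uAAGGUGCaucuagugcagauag
miR-19a-3p: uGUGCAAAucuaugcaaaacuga
miR-19b-3p: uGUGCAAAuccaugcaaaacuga
miR-106b-3p: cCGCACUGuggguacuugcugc
miR-18a-3p: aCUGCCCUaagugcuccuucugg

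The first 5 share the seed AAAGUGC. Over the 21 positions that all 5 have, 15 bases are identical in all of them. With positions counted from 1 at the 5′ end and the miRNA named first giving the first base, miR-17-5p and miR-106a-5p differ only by C1A. miR-17-5p and miR-20a-5p differ by C1U and C12U, and miR-17-5p and miR-93-5p by U10G, A11U, C12U and A13C. The changes from miR-17-5p to miR-93-5p thus form a block. Of them, U10G also separates miR-17-5p from miR-106b-5p, and miR-20a-5p shares C12U. miR-19a-3p and miR-19b-3p differ by U11C alone. The seed of miR-18a-5p, AAGGUGC, departs from that of miR-17-5p by A4G. The opposite arms miR-106b-3p and miR-18a-3p have seeds that no other listed name with a sequence carried.

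On GRCh38.p14 the 6 hairpins of miR-17-92 span chr13:91350605-91351391 on the plus strand, within 787 bases. GENCODE release 29 places all 6 inside the non-coding gene MIR17HG, over an exon of at least 1 of its transcripts. miR-106a-363 lies on the minus strand at chrX:134169378-134170278, where the non-coding gene AC002407.1 overlaps the hairpins with an entry in the table. miR-106b-25 lies on the minus strand at chr7:100093560-100094074. Its hairpins MIR106B and MIR25 sit in an intron of MCM7, which encodes a subunit of the replicative helicase. MIR93 and MIR20B had no hairpin entry in the table. The mature sequence of miR-19b-3p is encoded both in miR-17-92 (chr13:91351245-91351267) and in miR-106a-363 (chrX:134169683-134169705). Its value therefore belongs to both clusters.

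Each file gives 1 RPKM value per name, that is reads per kilobase of miRNA and per 1000000 reads, with no replicate, so no test between the conditions was possible. The RPKM column summed to 26530004 for parental cells and to 5509071 for spheres. Values were therefore given as deposited and after rescaling each column to a sum of 1000000 (rescaled RPKM, a share of the miRNA signal). Log2 folds compare spheres with parental cells after 0.5 was added to each rescaled RPKM. On the deposited scale folds lie 2.27 lower on the log2 scale, and the median over the 269 measured miRNAs (mean of at least 10 rescaled RPKM) was 0.02 rescaled and -2.25 as deposited. The RPKM of miRNAs rests on an estimated 4550662 reads for parental cells and 683674 for spheres. That is 58.5% of the reads behind the RPKM in parental cells and 12.1% in spheres, a difference that moves with the group and with every fold as deposited. Its part in the folds was not tested. Intervals are 95% counting intervals from estimated reads, without the added 0.5. They set one library against the other and leave out variation between cultures. They cover counting error only, and reads copied by PCR do not count independent molecules. All 4 squamous epithelial markers (miR-205-5p, miR-203a, miR-200c-3p and miR-31-5p) were present, with 34600 rescaled RPKM in sum in the parental library and 71036 in spheres. Most of the difference came from miR-203a (2698 and 35056), while miR-205-5p had 21938 and 19458. Of 6 blood cell markers, whose sum was 742 and 228, miR-486-5p made up nearly all (741 and 207). miR-150-5p (0 and 13.2), miR-451a (0.440 and 5.86) and miR-142-3p (0 and 2.80) were higher in spheres on at most 9 estimated reads, miR-223-3p was at 0.0845 and 0, and miR-144-3p was listed at 0 in both. The muscle list reached 1.98 and 17.0, with miR-206 at 0 in both, and the liver marker miR-122-5p was at 0 in both. miR-126-3p of endothelium had 38.3 and 68.9, and the smooth muscle and fibroblast pair 25.9 and 67.7. In that pair miR-143-3p made up nearly all (25.9 and 66.3), and miR-145-5p had 0 and 1.40, on 1 estimated sphere read. The part of these other-cell markers in the values below was not tested.

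Together the 10 members took 0.462% of the miRNA signal in parental cells (interval 0.456% to 0.468%) and 0.345% in spheres (0.331% to 0.359%). miR-93-5p alone made up 59.8% of the members' RPKM in parental cells and 51.9% in spheres. All 10 were measured. Of them, 2 were at least 2-fold lower in spheres on the rescaled scale and none was at least 2-fold higher, beside 19.0% lower and 23.0% higher among all 269 measured miRNAs. As deposited, 10 of 10 were at least 2-fold lower, against 79.6% of all measured miRNAs, and none was higher, against 6.32%. The share of members lower after rescaling, 2 of 10, was near that background. Their median log2 fold was -0.16 rescaled and -2.43 as deposited. In bulk RNA, fewer cells with a miRNA and less of it per cell cannot be told apart.

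**Figure D1:**
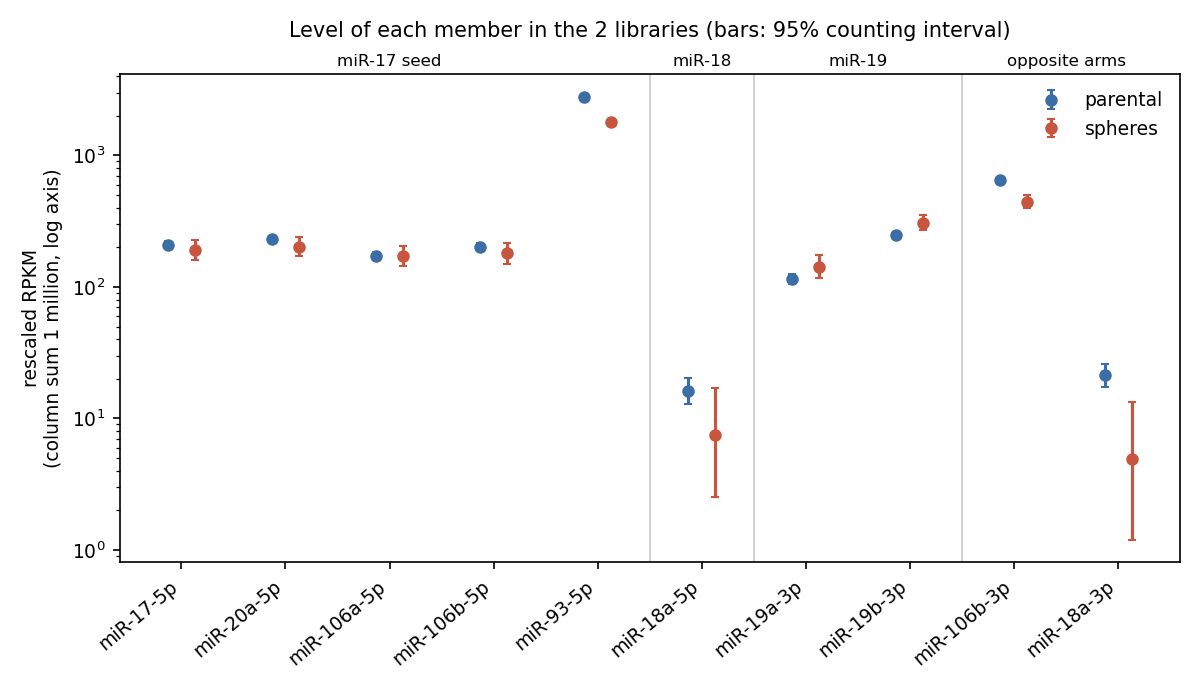
Rescaled RPKM (log axis) of each member in the parental (blue) and sphere (red) library, grouped by seed, with 1 library per point and bars for the 95% counting interval. miR-93-5p stands highest at 2762 and 1789.7, the 4 other miR-17 seed members lie close together between 171.8 and 231, and the 2 arms of miR-18a lie lowest with the widest bars.

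The miR-17 seed family held most of the members' signal. miR-93-5p, encoded in the MCM7 intron, had 73277 RPKM as deposited in parental cells and 9859.8 in spheres. Rescaled, that is 2762 and 1789.7, on an estimated 13117 and 1277 reads, and the miRNA ranked 35 and 44 among all names. It was 1.54 times lower in spheres (interval 1.46 to 1.64), a log2 fold of -0.63, and 7.43 times lower as deposited. The rescaled deficit was short of 2-fold but outside counting error. Its log2 fold lay between the quartiles of all measured miRNAs, -0.70 and 0.84.

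The other 4 members with this seed lay at a much lower level and close to each other. miR-20a-5p, from miR-17-92, had a rescaled RPKM of 231 in parental cells and 203 in spheres, a log2 fold of -0.18 (interval -0.44 to 0.07). miR-17-5p, the first miRNA of the same transcript, had 209 and 191, a log2 fold of -0.13 (-0.40 to 0.13). miR-106b-5p, the hairpin neighbour of miR-93-5p, had 200.3 and 181, a log2 fold of -0.14 (-0.43 to 0.14). For these 3, the value in spheres was slightly below that in parental cells, by less than counting error. miR-106a-5p, from the X chromosome, had 171.8 and 172.2, a log2 fold of 0.00 (-0.28 to 0.28), whose sign changed with the scaling. As deposited, the 4 were at most 5.47 times lower (miR-20a-5p), beside a column total that was 4.82 times lower.

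The 4 could not be told apart in how they differed between the libraries. The ratio of each to the others changed by at most 0.19 on the log2 scale, and in none of the 6 pairs did the counting interval exclude 0. These intervals take the reads of each name as independent. The part of reads divided among such similar sequences was not tested. miR-93-5p differed from each of the 4: all 4 intervals excluded 0, with differences in log2 fold of 0.44 to 0.63. With no miR-93-5p the seed family had 811 and 748 rescaled RPKM, a log2 fold of -0.12 (-0.25 to 0.01). With it, the sum was 3573 and 2537, a log2 fold of -0.49 (-0.56 to -0.42). The value of the family is therefore mostly the value of miR-93-5p, whose share of the 5 members' RPKM was 77.3% in parental cells and 70.5% in spheres.

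Of the 2 other listed names with this seed, miR-20b-5p, from miR-106a-363, had 73.5 and 75.1 rescaled RPKM. Its log2 fold of 0.03 (-0.41 to 0.45) lay next to that of miR-106a-5p, its cluster neighbour. miR-526b-3p was listed at 0 for parental cells and reached a rescaled RPKM of 0.163 in spheres, well under the 4.40 that 3 reads give in that library.

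The miR-18 seed was the scarcest of the 3. miR-18a-5p had 432 RPKM as deposited in parental cells and 41.2 in spheres, or 16.3 and 7.48 rescaled. Its estimated reads were 77.3 and 5.33. The log2 fold of -1.07 passed the 2-fold rule, but its interval ran from -2.72 to 0.13 and so held 0. miR-18b-5p, its near-copy from miR-106a-363 (A20U), lay below the level counted as measured, with 10.6 and 6.07 rescaled RPKM. Summed, the pair had a log2 fold of -0.96 (-2.10 to -0.05), on 128 and 9.67 estimated reads. The size of the deficit in this family is therefore poorly fixed. miR-18a-5p and miR-18a-3p had under 10 rescaled RPKM in spheres and passed the filter through their parental level, so their count as lower is partly set by the filter.

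The miR-19 seed was the only one of the 3 above its parental level after rescaling. miR-19b-3p, the third most abundant member in both libraries, had 6545 RPKM as deposited in parental cells and 1703 in spheres, or 247 and 309 rescaled. It was 1.25 times higher in spheres (1.08 to 1.45). miR-19a-3p had 115 and 143 rescaled, 1.25 times higher too, with an interval of 0.998 to 1.54 that just held 1. As deposited both were lower in spheres, by 3.84 and 3.87 times, the smallest deficits among the 10 members. Their sum had a log2 fold of 0.32 (0.15 to 0.50), which also lay between the quartiles of all measured miRNAs, -0.70 and 0.84.

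The 2 miR-19 copies kept the same proportion. miR-19b-3p was 2.15 times as abundant as miR-19a-3p in parental cells (1.94 to 2.39) and 2.16 times in spheres (1.70 to 2.76). The change of that ratio was 0.01 on the log2 scale, with an interval of -0.36 to 0.38. How reads were divided between these near-identical names is not known, and its part in the ratio was not tested.

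**Figure D2:**
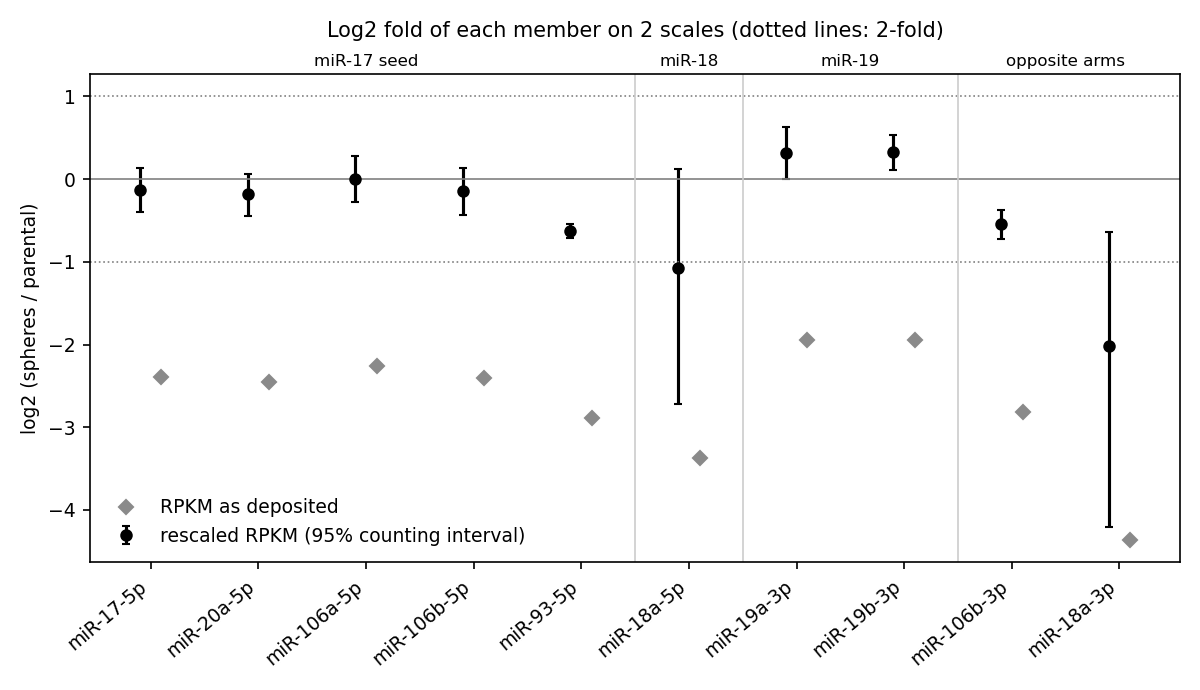
Log2 fold, spheres over parental, of each member on the rescaled scale (black, with its 95% counting interval) and as deposited (grey diamonds), grouped by seed, with dotted lines at 2-fold. After rescaling the miR-19 pair lies above 0 and miR-93-5p, miR-106b-3p and miR-18a-3p lie below it with their intervals, while all 10 lie between -1.94 and -4.37 as deposited.

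The seeds could also be compared without any scaling between libraries, as ratios within a library. miR-19b-3p had 1.18 times the RPKM of miR-17-5p in parental cells (1.09 to 1.29) and 1.62 times in spheres (1.30 to 2.02), a change of 0.45 on the log2 scale (0.12 to 0.78). Both are encoded in miR-17-92. miR-19a-3p went from 0.550 to 0.748 of the miR-17-5p level, a change of 0.44 (0.05 to 0.84). In contrast, miR-20a-5p, which has the seed of miR-17-5p, had 1.11 and 1.06 times its level, with a change of -0.06 (-0.42 to 0.30). Of the 8 pairs of a miR-19 member with one of the 4 low miR-17 seed members, 6 had an interval that excluded 0. The exceptions were both of miR-106a-5p. Its ratio changed by -0.31 (-0.72 to 0.10) against miR-19a-3p and by -0.32 (-0.66 to 0.02) against miR-19b-3p. For miR-106a-5p the contrast was thus not beyond counting error. Against miR-93-5p both miR-19 members had an interval that excluded 0, with differences in log2 fold of 0.94 and 0.95.

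miR-18a-5p, which lies between miR-17 and miR-19a on the transcript, had 0.0781 times the RPKM of miR-17-5p in parental cells and 0.0392 times in spheres. The change of -0.995 had an interval of -2.24 to 0.25. Mature levels along the transcript were unequal in both libraries, and miR-18a-5p was 12.8 times below miR-17-5p in parental cells and 25.5 times below it in spheres.

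Of the 2 opposite arms among the members, 1 was more abundant than the arm with the family seed. miR-106b-3p had 17169 RPKM as deposited in parental cells and 2447 in spheres, or 647 and 444 rescaled, and was 1.46 times lower (1.29 to 1.65). It exceeded miR-106b-5p, which carries the miR-17 seed, in both libraries, by 3.23 times in parental cells (2.99 to 3.49) and 2.45 times in spheres (1.97 to 3.05). This ratio changed by -0.40 on the log2 scale (-0.73 to -0.08), so the 3p arm was the one with the larger deficit. miR-18a-3p had 568 RPKM as deposited in parental cells and 27.0 in spheres, or 21.4 and 4.91 rescaled. At 4.36 times lower (1.56 to 18.4) it had the lowest log2 fold of the 10 members, -2.02, on 102 and 3.50 estimated reads. Its ratio to miR-18a-5p was 1.31 in parental cells (0.968 to 1.79) and 0.656 in spheres (0.119 to 3.08), so which arm was the more abundant could not be told in either library.

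The order of the members was much alike in the 2 libraries. miR-93-5p, miR-106b-3p and miR-19b-3p came first in both, and the arms of miR-18a last. In parental cells the neighbours miR-19b-3p and miR-20a-5p did not differ beyond counting error (ratio 1.07, interval 0.984 to 1.16), nor did miR-17-5p and miR-106b-5p (1.04, 0.950 to 1.14). In spheres miR-19b-3p stood clear of miR-20a-5p, at 1.52 times its RPKM (1.23 to 1.89), while miR-20a-5p, miR-17-5p, miR-106b-5p, miR-106a-5p and miR-19a-3p followed with no step beyond counting error. Over all 45 pairs of members, the difference in log2 fold had an interval that excluded 0 in 28. Of these, 8 involve the scarce miR-18a-3p. Each member enters 9 pairs, so the pairs are not independent. The same count was not made over pairs of other measured miRNAs, so it shows no trait of the members.

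By cluster, the sums followed the members that dominate them. The 3 members in miR-106b-25 summed to 3609 (parental cells) and 2415 (spheres) rescaled RPKM, a log2 fold of -0.58 (-0.65 to -0.51). The 6 in miR-17-92 had 838 and 858, a log2 fold of 0.03 (-0.09 to 0.16), and -0.11 (-0.26 to 0.05) without miR-19b-3p. Its sign has no firm basis, since scaling to the total without the most abundant miRNAs gave -0.06. The 2 in miR-106a-363 had 419 and 481, a log2 fold of 0.20 (0.03 to 0.37). miR-106a-5p alone, without the shared miR-19b-3p, had 0.00. As deposited the 3 sums had log2 folds of -2.85, -2.23 and -2.07.

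Of the cluster partners with the miR-25 and miR-92 seed, AUUGCAC, miR-92a-3p and miR-25-3p were far more abundant than the members and lower in spheres. miR-363-3p, from miR-106a-363, was scarce, with 4.40 and 2.93 rescaled RPKM on 20 and 2 estimated reads. Its log2 fold of -0.51 had an interval of -3.73 to 1.45. miR-92a-3p, the last miRNA of miR-17-92, had a rescaled RPKM of 47745 in parental cells and 24692 in spheres, a log2 fold of -0.95 (-0.97 to -0.93). Its RPKM was 229 times that of miR-17-5p in parental cells (215 to 244) and 129 times in spheres (109 to 154), a change of -0.82 on the log2 scale (-1.08 to -0.56). Like miR-19b-3p it is encoded in both miR-17-92 and miR-106a-363, yet against miR-19b-3p its ratio went from 194 to 79.9, a change of -1.28 (-1.48 to -1.07). In miR-106b-25, miR-25-3p had 7738 and 4117 rescaled RPKM, a log2 fold of -0.91. It was 2.80 times as abundant as miR-93-5p in parental cells and 2.30 times in spheres, a change of -0.28 (-0.38 to -0.18). The log2 folds of the scarce miR-18a-5p (-1.07) and miR-18a-3p (-2.02), also from miR-17-92, lay below that of miR-92a-3p, with wide intervals.

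**Figure D3:**
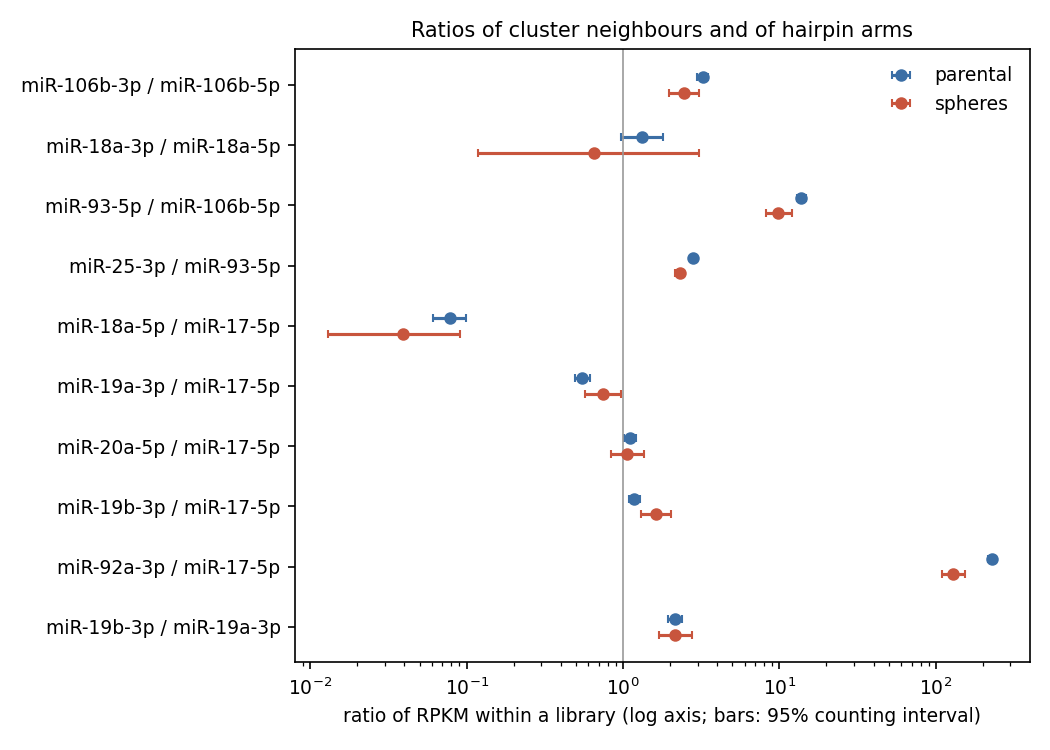
Ratio of RPKM of 10 pairs of miRNAs within the parental (blue) and the sphere (red) library on a log axis, with 95% counting intervals and a vertical line at 1. miR-92a-3p over miR-17-5p is 229 and then 129, and miR-93-5p over miR-106b-5p is 13.8 and 9.86, while miR-19b-3p over miR-19a-3p is 2.15 and 2.16.

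Among the 18 other listed arms of the 3 clusters, 7 were measured, of which 3 were at least 2-fold lower after rescaling and none higher, beside the 19.0% lower and 23.0% higher of all measured miRNAs. Their median log2 fold was -0.95. As deposited all 7 were at least 2-fold lower, beside 79.6% of all measured miRNAs. The lower ones were passenger arms on few sphere reads. miR-25-5p had 105 and 11.5 rescaled RPKM, a log2 fold of -3.14 (-4.46 to -2.17) on 456 and 7.5 estimated reads. Its ratio to miR-25-3p changed by -2.28 (-3.29 to -1.27). miR-93-3p had 26.8 and 10.3, a log2 fold of -1.34 (-2.72 to -0.29), and miR-92a-1-5p had 42.3 and 19.6, a log2 fold of -1.09 (-2.01 to -0.33). miR-17-3p, the passenger arm of miR-17, had 30.6 and 24.3, a log2 fold of -0.33 (-1.17 to 0.41). For miR-93, miR-92a-1 and miR-17, the change of the ratio between arms had an interval that held 0. The 11 arms not measured reached a rescaled RPKM of at most 10.6 (parental cells) and 6.07 (spheres), both for miR-18b-5p, and 2 of them, miR-106a-3p and miR-363-5p, were listed at 0 in both libraries.

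**Figure D4:**
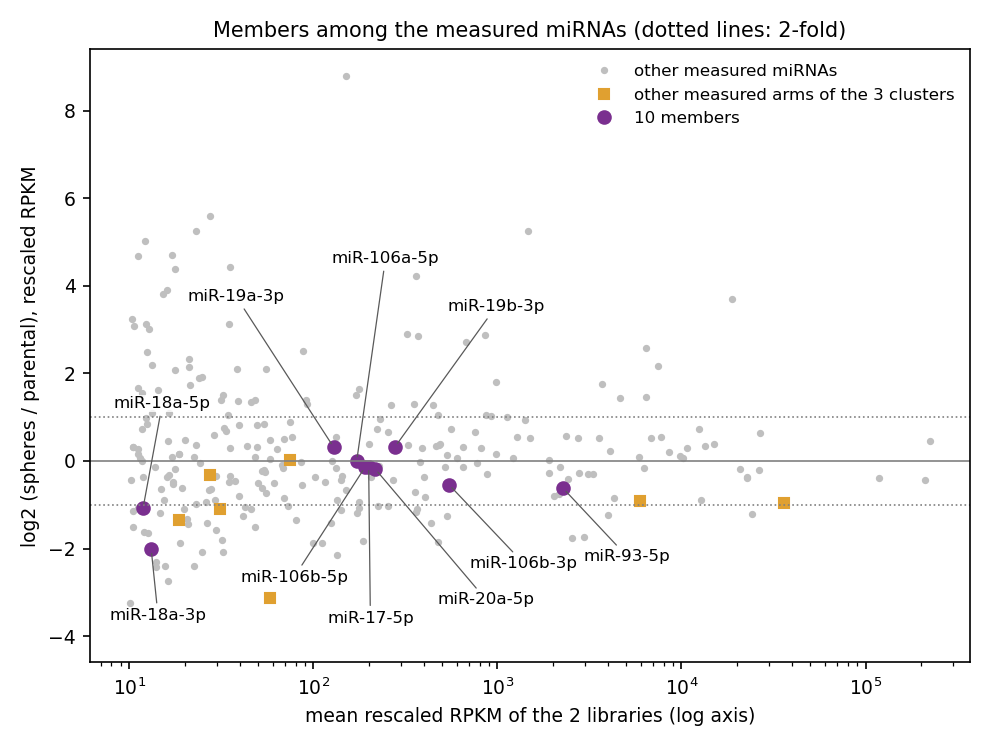
Log2 fold after rescaling against the mean rescaled RPKM of the 2 libraries (log axis) for the 269 measured miRNAs, with the 10 members in purple, the 7 other measured arms of the clusters as orange squares and dotted lines at 2-fold. The members except the 2 arms of miR-18a lie within 2-fold, between -0.63 and 0.32, and the lowest orange square is miR-25-5p at -3.14.

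Outside the clusters, the levels most like those of miR-93-5p, by distance on log2 rescaled RPKM over both libraries, were those of miR-320b (2712 and 1730.2), miR-151a-3p (2726 and 1603) and miR-186-5p (2766 and 2085). With 2 libraries, this likeness says only that the levels were near each other.

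The low values bear on the precision of near-identical members. The commonest value was taken as 1 read on 22 nt, and a mature sequence of another length then has a step of its own. Of the names that lie on a 1-read step and have a RefSeq sequence, 76 of 80 (parental cells) and 71 of 72 (spheres) had the length that the step implies. Many low values lie between steps: of the names with a sequence and under 60 estimated reads, 40.7% (parental cells) and 37.4% (spheres) were whole within 0.01 reads. None of the 10 members was whole in either library, most of them at higher levels. miR-18a-5p had 77.33 and 5.33, miR-18a-3p 3.50 in spheres, and miR-20b-5p 53.58 in spheres. Of the 11 other arms above 0 in both libraries, 3 were whole in both, miR-92a-1-5p with 201 and 14, miR-363-3p with 20 and 2, and miR-20a-3p with 2 and 2. The other 8, such as miR-25-5p with 7.5 in spheres, were not. Values between steps are thus common in these files and not a trait of the members. Under this estimate the values of the members include fractions of reads, and how the authors divided reads is not given in the sources used here. For miR-17-5p and miR-106a-5p, miR-18a-5p and miR-18b-5p, and miR-19a-3p and miR-19b-3p, which differ by 1 base each, the split within the pair is uncertain.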

How the data were processed

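Small RNA libraries of parental and sphere FaDu cells were compared, with 1 library per group. The deposited values are RPKM, per the file headers, made by the authors for 2038 mature names per library. The submitters' processing notes name hg19. The aligner, counting tool, miRNA annotation and handling of reads with several matches: not given in the sources used here. The files hold no coordinates, so those printed are RefSeq's on GRCh38.p14.

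Each column was rescaled to 1000000, and log2 folds used a pseudocount of 0.5. Values given as times lower or higher, and all intervals, were computed without it, so they differ slightly from log2 folds of scarce miRNAs. miRNAs whose rescaled RPKM averaged at least 10 counted as measured, and higher or lower meant at least 2-fold. Reads were estimated as RPKM times mature length over the commonest value above 0 (5.84 RPKM in parental cells, 8.07 in spheres), taken as 1 read on 22 nt. Lengths came from RefSeq for 1714 names, and 22 nt was used for the rest. That a step is 1 read and not another number is an assumption. A value of 0 allows up to 3 reads. Intervals of shares and ratios are Clopper-Pearson, and those of changes of a ratio are normal approximations. The rescaling, the 2-fold rule and the interval of a ratio were tested on simulated whole reads. The simulation was built with the 1-read step and held no divided reads, so it tests neither assumption. It did not cover the normal approximations. Python 3.11.15 and scipy 1.17.1 were used.

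The members and lists were chosen with earlier results of these data known. Named were all 10 members, every measured other arm of the clusters, names sharing a seed, and the 3 miRNAs nearest in level to the most abundant member. miR-18b-5p, miR-363-3p, miR-20a-3p, miR-106a-3p and miR-363-5p were named after their values were seen. Alternatives covered scaling, unit, pseudocount, filter and the members of a sum.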

Additional observations from a re-analysis of the deposited data

How the results depend on the processing

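RPKM as deposited changed most. With it, 17 miRNAs were at least 2-fold higher and 214 lower (62 and 51 after rescaling). All 10 members were lower (2 after rescaling), and the sums had log2 folds of -2.76 (miR-17 seed), -3.38 (miR-18), -1.94 (miR-19), -2.23 (miR-17-92), -2.07 (miR-106a-363) and -2.85 (miR-106b-25). This lies in its construction, since the column totals differ. The total without the most abundant miRNAs moved miR-93-5p to -0.72, the miR-17 seed to -0.59 and miR-106b-25 to -0.68, beyond their counting intervals. It left the 2 lower members, with 56 miRNAs higher and 56 lower. A pseudocount of 5 left 1 lower member, since miR-18a-5p then had -0.77. Dropping the filter gave 193 higher and 180 lower. At a mean of at least 100, 23 were higher and 18 lower, and 0 of 8 members, since both arms of miR-18a fall below it. Leaving out miR-19b-3p gave -0.11 for miR-17-92 and 0.0035 for miR-106a-363. Leaving out miR-93-5p, chosen after seeing the data, gave -0.12 for the miR-17 seed. The median of ratios, the upper quartile and the share of estimated reads left 2 lower members, both arms of miR-18a, and each kept the sums and the 10 members' folds within their counting intervals. The sign of miR-106a-5p changed among the scalings. No paired analysis was possible because each group has 1 library, so no replicate could be left out. Depth limits miR-18a most, at 5.33 and 3.50 estimated sphere reads.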
